A study of Drepana arcuata with 6 samples.

Results

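The 149 genes described here were nearly confined to late instar larvae of the masked birch caterpillar, Drepana arcuata. They are Trinity genes, which are groups of transcripts that the assembler Trinity built from shared sequence, and they were chosen among 116079 in all. A gene was kept where its level was at least 10 CPM (the summed expected count of all its isoforms as a share of the library total, scaled to 1e6) in each late instar library and where its highest early instar CPM was at most 1% of its lowest late CPM. Late replicate 2 also had to lie between 10% and 10 times of late replicates 1 and 3. This last condition removed 0 genes at the limits used. The rule left out 2 clusters of contigs by their identifiers, 17 genes of which met the limits, and 1 gene that the study lists by name as fatty acid synthase-like. The members were thus chosen by their early and late CPM, so their difference between the stages is given as a description and not as a test.

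RNA was sequenced from whole larvae reared on paper birch leaves, all of them offspring of 1 female. Each of 3 early instar libraries (early R1 to R3) came from 20 pooled larvae in instars I and II, which live in groups. Each of 3 late instar libraries (late R1 to R3) came from 5 pooled larvae in instars IV and V, which live alone in leaf shelters. Stage goes together with body size, with the number of larvae in a pool and with the share of the body that each organ makes up, so these cannot be told apart. In whole larvae, more cells of a type and more RNA per cell cannot be told apart either.

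In Lepidoptera the last larval instars do most of the feeding and growth. The fat body fills with storage proteins during this time, the silk glands enlarge, and the juvenile hormone titre falls before the insect prepares to pupate. Genes that are silent in the first instars and active in the last are also known from larval development. Whether the members belong to such genes was not tested. The study annotated its assembly and released the assembled sequences, but that annotation and those sequences were not used here, and the abundance tables give identifiers alone. The rule left out genes that the study discusses under a protein name, and of the 10 transcripts with primers 0 belong to a member. The members are therefore described by their identifiers, levels, lengths, isoforms and the contigs assembled with them. No role is given to any of them, and whether a member comes from the larva, its food or an organism living in it was not tested.

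Library totals ran from 11177800 counts in early R2 to 46307057 in early R1, and from 15109224 in late R3 to 35571272 in late R1. The members held 1.40% of the counts in late R1 (95% Wilson interval 1.397% to 1.405%), 1.24% in late R2 (1.238% to 1.246%) and 1.04% in late R3 (1.034% to 1.044%). They held 0.00199% in early R1 (0.00187% to 0.00213%), 0.00402% in early R2 (0.00366% to 0.00441%) and 0.00117% in early R3 (0.00104% to 0.00131%). These intervals cover counting error only. The members thus went from about 1 in every 100 fragments of the late libraries to a trace in all 3 early ones. Their median level was 42.5 CPM in late R1, 40.1 CPM in late R2 and 23.2 CPM in late R3, against 0.0216, 0.0895 and 0 CPM in early R1, R2 and R3. The first 2 of these early medians are the CPM of 1 count.

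**Figure D1:**
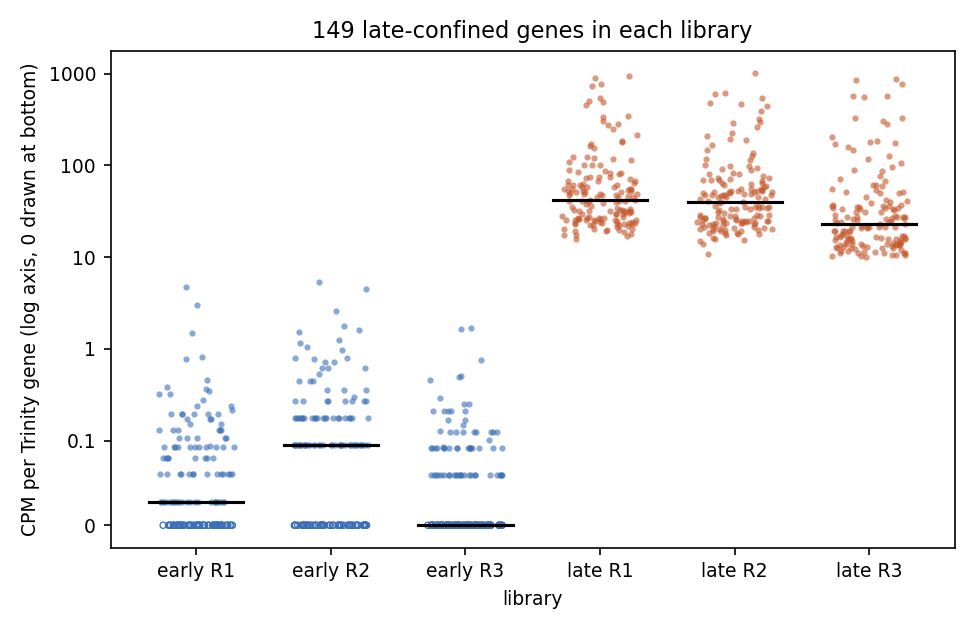
Each point is 1 of the 149 genes in 1 library, with its CPM on a logarithmic axis, open points at the bottom for 0 counts, and a bar at the median of the library. All points of the late libraries lie at 10 CPM or above, as the rule required, and the late R3 median of 23.2 CPM lies below those of late R1 and R2.

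For scale, edgeR's quasi-likelihood test over all 22132 tested genes called 4.87% of them higher in late instars (limits of 0.001 on the Benjamini-Hochberg adjusted p and 2 on the log2 scale). All 149 members were among the tested genes and among these calls, which the rule all but fixes. edgeR's exact test and DESeq2 called 7.27% and 7.32% of all genes and again the 149 members. Fewer members were called without early R1 (142) or without early R3 (137).

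Levels of different genes were compared per length, as TPM (the length-scaled abundance that RSEM gives, summed over isoforms). Mean late levels ran from 1.53 to 1073 TPM with a median of 10.2 TPM, and 14 members exceeded 100 TPM. The other 9475 genes that met the same late conditions but had more early expression had a median of 8.98 TPM. TPM divides by length, so the order of the members differs from that by CPM and short contigs rank higher. TRINITY_DN21067_c0_g4, with 212 bp, had mean late levels of 99.4 CPM and 560 TPM. TRINITY_DN16087_c1_g5, whose isoform of largest late TPM has 1492 bp, had 837 CPM and 197 TPM. The highest level in TPM was that of TRINITY_DN22702_c10_g1, whose longest transcript is 410 bp. It had 1252, 746 and 1222 TPM in late R1, R2 and R3, or 1073 ± 284 TPM (SD, n = 3). Late R2 was the lowest of its 3 late libraries. Its early counts were 139, 50 and 41, so it was not silent in early instars, but its mean late CPM was 233 times the early CPM pooled over the 3 libraries.

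TRINITY_DN21067_c0_g1 followed with 1050, 606 and 987 TPM, again with late R2 the lowest. It is 1 of 4 members from a single Trinity component, which is a set of contigs joined by shared sequence during assembly. The other 3 were also among the 10 members of highest TPM. TRINITY_DN21067_c0_g2 had 457, 234 and 402 TPM. TRINITY_DN21067_c0_g3 had 555, 321 and 522 TPM. TRINITY_DN21067_c0_g4, a contig of 212 bp, had 599, 401 and 682 TPM. In all 4, late R2 held the lowest level, and their late CPM was 199, 247, 192 and 289 times the pooled early CPM in the order of their numbers. The fifth gene of this component, TRINITY_DN21067_c0_g5, missed the limit with early CPM at 1.27% of its lowest late CPM. Fragments that fit several contigs of a component are divided between them by RSEM, so the levels of single members of such a component are uncertain and they are not independent of each other.

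TRINITY_DN20251_c1_g2 had 842, 627 and 930 TPM in the late libraries and 7, 13 and 5 counts in the early ones, and its ratio of 2438 was the highest of all members with more than 3 early counts. Of its 10 isoforms, TRINITY_DN20251_c1_g2_i5 with 348 bp held 87.3%, 87.6% and 89.4% of the deposited TPM of the gene in late R1, R2 and R3. The shares were nearly the same in the 3 pools. TRINITY_DN15629_c0_g1 had 893, 699 and 552 TPM, with late R3 the lowest. It was the only 1 of the 10 members of highest TPM in which late R3 was the lowest library. In TRINITY_DN16245_c0_g2 the order differed again, with 153, 303 and 290 TPM, and late R1 was the lowest.

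TRINITY_DN18880_c3_g1 and TRINITY_DN18880_c3_g2 make up 1 component together. The first had 1003, 354 and 768 TPM and the second 820, 290 and 813 TPM. Late R2 was at less than 50% of either other late library in both. The same low value in late R2 appeared in TRINITY_DN19848_c1_g2, with 75.1, 27.2 and 77.0 CPM, and in TRINITY_DN17139_c1_g1, with 119.6, 34.9 and 87.2 CPM. The last had 1 early count in all.

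**Figure D2:**
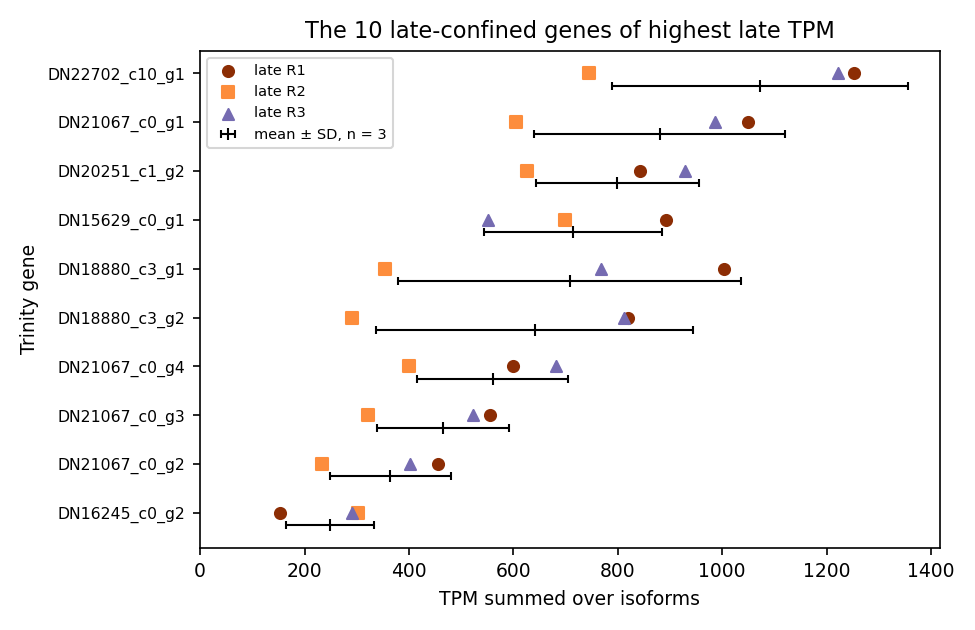
For each of the 10 members with the highest mean late level, the symbols give the TPM in the 3 late libraries and the black bar the mean ± SD (n = 3). In 8 of the 10 the late R2 square is the lowest, and in TRINITY_DN15629_c0_g1 and TRINITY_DN16245_c0_g2 it is not.

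The pattern of the 10 members of highest TPM was not that of the set. These are short: their isoforms of largest late TPM had 212 to 769 bp, against a median of 1301 bp over all members. Whether their pattern goes with level or with length was not tested. In 136 of the 149 members (91.3%), late R3 had the lowest CPM of the late libraries, against 28.9% of the 9475 genes with the same late conditions. Late R2 was the lowest in 11 members and late R1 in 2, TRINITY_DN16245_c0_g2 and TRINITY_DN20207_c2_g1. The latter had 31.7, 135 and 157 CPM in late R1, R2 and R3. The median log2 ratio of late R3 to late R1 was -0.86 over the members and -0.09 over the other genes. The median log2 ratio of late R2 to late R1 was -0.13 and -0.09.

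Late R1 and R2 agreed closely within the set. The median coefficient of variation (CV, the SD as a percent of the mean) between late R1 and R2 was 7.24% over the members, against 16.3% over the other genes. Between late R1 and R3 it was 41.0% over the members and 9.69% over the other genes. So members differed less than other genes between the first pair of pools, and more between these and the third. Over all 3 late libraries the median CV was 30.02% in the members and 15.1% in the others. TRINITY_DN16087_c1_g5, the member with the highest mean late CPM, shows the pattern with 943, 1008 and 559 CPM, and TRINITY_DN16921_c1_g1 does so at a lower level with 303, 292 and 184 CPM.

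To count this pattern, genes were taken whose log2 ratios of late R2 to R1 and of late R3 to R1 both lay within 0.3 of the medians of the members. This window was chosen after the values had been seen, and its centre at the medians of the members favours their share. The share of the other genes around their own medians was not counted. It held 104 members (69.8%) and 202 (2.13%) of the 9475 other genes. With a window of 0.2 or 0.5 it held 73 or 132 members and 90 or 861 of the others. With TPM in place of CPM it held 103 members and 2.80% of the others. The contrast rests on late R3. With only the ratio of late R2 to R1 in the window, it held 129 members and 48.3% of the others. Late R3 is also the shallowest late library, and the part of depth or of the state of its RNA in the pattern was not tested.

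**Figure D3:**
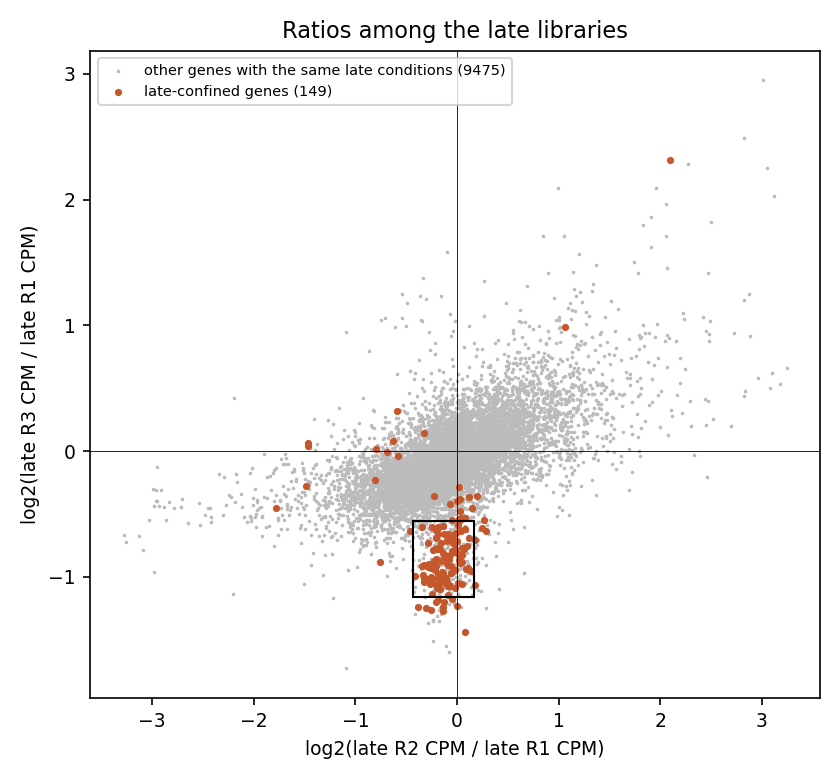
Each point is 1 gene, with the log2 ratio of late R2 to R1 on the horizontal and of late R3 to R1 on the vertical axis, for the 149 members (orange) and the 9475 other genes with the same late conditions (grey). The black square is the window around the medians of the members, which holds 104 of them, below the bulk of the grey points.

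The same pattern continued past the limit of the rule. Of 64 genes whose highest early CPM was over 1% and up to 2% of their lowest late CPM, none of which had set the window, 42 (65.6%) lay in it. The share was 54.2% of 59 genes at 2% to 5%, 29.1% of 55 genes at 5% to 10% and 20.7% of 145 genes at 10% to 30%. It was 1.92% of 2183 genes at 30% to 100% and 0.574% of the 6969 genes above. The pattern among the late pools was thus shared by most genes with little early expression and by few genes with more. All these shares come from the same 3 late libraries.

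**Figure D4:**
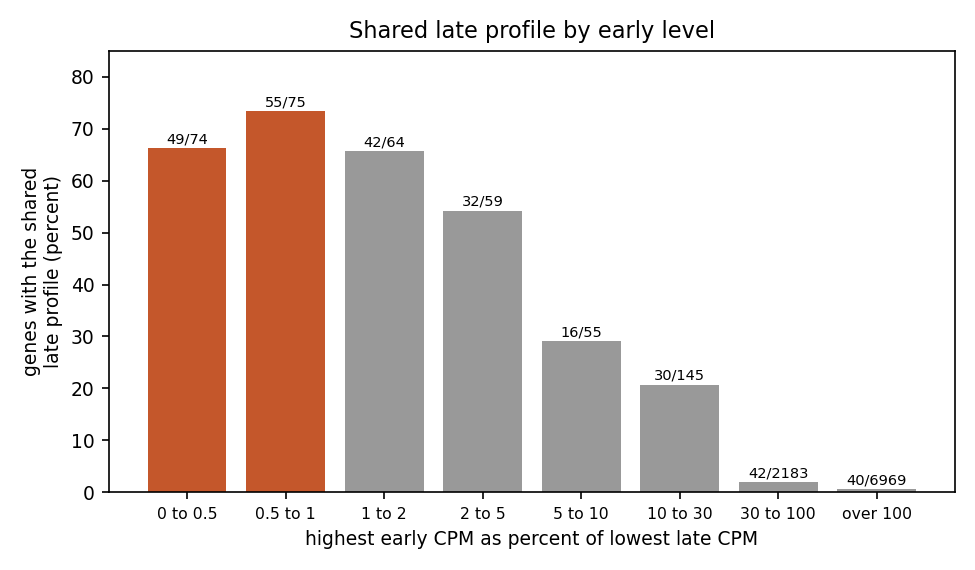
The bars give the percent of genes inside the window of the shared late profile, by class of early expression, with the numbers of genes above each bar. The 2 orange bars are the members. The share falls from 73.3% of the members at 0.5% to 1% to 0.574% of the genes whose highest early CPM exceeded their lowest late CPM.

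Members were shorter and had fewer isoforms than other genes with the same late conditions. The longest transcript of a member ran from 212 to 8109 bp with a median of 1478 bp, against 2208 bp in the others and 1487 bp over all 22132 tested genes. A member had 2 isoforms in the median, the others 6 and all tested genes 4. In 53 members (35.6%) there was 1 isoform, against 12.3% of the others. The log2 ratio of late R3 to R1 was lower in longer members, with Spearman's rho of -0.57 across 149 genes that share the same libraries and are not independent. Across the 9475 others rho was -0.26. Of members from 500 to under 1000 bp the median log2 ratio was -0.68 (32 genes), and of those of 3000 bp or more it was -1.05 (14 genes). The medians of the others in these classes were 0.01 and -0.15. Within each length class above 500 bp the members thus lay below the others. Under 500 bp the median was 0.02 for the 9 members and 0.17 for the others.

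TRINITY_DN22067_c2_g1, the longest member with 8109 bp, had the highest late R2 relative to the mean of late R1 and R3. It had 45.2, 47.5 and 16.7 CPM in the late libraries and 0 counts in the early ones. TRINITY_DN21584_c0_g1, the next in length and in this ratio with 7437 bp, had 185, 209 and 88.4 CPM, and 38, 7 and 7 early counts. TRINITY_DN16955_c3_g2, the next in this ratio, is of ordinary length for the set with 1258 bp and had 24.7, 30.02 and 15.9 CPM. In all 3 late R2 was the highest and late R3 the lowest of the late libraries.

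Of the 96 members with 2 or more isoforms, 84 (87.5%) had the same leading isoform by TPM in all 3 late libraries, against 74.8% of 8314 other genes. In 75 of the 96 (78.1%) the leading isoform held 50% or more of the mean late TPM, against 66.3% of the 8314. Members had fewer isoforms than the other genes, and these shares were not compared at like numbers of isoforms. TRINITY_DN20063_c2_g2 had the most isoforms, 26, and its leading one, TRINITY_DN20063_c2_g2_i15, held 17.1%. Its late levels of 53.0, 46.4 and 30.8 CPM followed the pattern of the set. TRINITY_DN20991_c4_g1 and TRINITY_DN21755_c0_g1 had 18 isoforms each and also had late R3 lowest, with 36.7 and 36.3 CPM there. The first had 0 early counts and the second 9, 0 and 3.

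In early instars, 25 members had 0 counts in all 3 libraries, 53 had 1 to 3 counts in all and 71 had more. Of the members at 0, TRINITY_DN13428_c0_g1 had the highest late level per length, with 29.7, 25.8 and 19.0 TPM. It was at least 1300-fold higher in late instars against a floor of 3 counts over the early libraries. TRINITY_DN12301_c0_g1, with 26.6, 23.4 and 14.4 TPM, and TRINITY_DN11684_c0_g1, with 25.2, 18.9 and 12.8 TPM, were at least 857-fold and 657-fold higher. Over the 25 members these bounds ran from 390 to 1790. In the 71 members with more than 3 early counts, the mean late CPM was between 192 and 2438 times the pooled early CPM, with a median of 511. The rule sets the lower end of these ranges.

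The traces were not spread evenly over the early libraries. Summed over the members they came to 923, 449 and 278 counts, or 19.9, 40.2 and 11.7 CPM, in early R1, R2 and R3. Early R2, the shallowest library, thus held the highest level, and it was the highest of the early libraries in 82 of the 124 members with any early count. In early R2, 1 count is 0.0895 CPM, against 0.0216 CPM in early R1 and 0.0420 CPM in early R3. For the 53 members with 1 to 3 early counts in all, the rank of the libraries thus depends on depth. Without the 2 members of most early counts the sums were 12.2, 30.3 and 8.34 CPM. In the 96 members with several isoforms, the leading late isoform took 72.0% of the late counts and 44.7% of the early counts. Without the same 2 members these shares were 77.6% and 54.3%, the latter of 852 early counts. The leading isoform was chosen by its late TPM, which favours the late share, so no difference between the stages is read from these values.

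The rule was also applied with 1 library left out, and the genes so chosen were read in that library. Without early R1, 159 genes met the rule, and 149 of them (93.7%) also met the 1% limit in early R1. For early R3 it was 149 of 154 (96.8%). For early R2 it was 149 of 198 (75.3%), and the highest value among the rest was 10.03% of the lowest late CPM. Of 150 genes chosen without late R1, 149 reached 10 CPM in it. The lowest had 4.22 CPM there. Of 181 chosen without late R2, 157 (86.7%) did so, and the lowest had 0.141 CPM. Of 274 chosen without late R3, 194 (70.8%) did so, and the lowest had 4.04 CPM. The late R3 level was at least 100 times the highest early CPM in 210 of these 274 genes. The share that met the 1% limit was lowest in early R2, and the share that reached 10 CPM was lowest in late R3. These are the shallowest libraries of their stages, and the part of depth in these shares was not tested.

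The limits themselves fell inside a continuous range of values. TRINITY_DN17273_c1_g5, with early CPM up to 0.999% of its lowest late CPM, was the nearest inside, before TRINITY_DN21067_c0_g1 at 0.978% and TRINITY_DN20945_c1_g2 at 0.977%. TRINITY_DN19848_c1_g1 at 1.002%, TRINITY_DN12410_c0_g1 at 1.04% and TRINITY_DN22702_c10_g3 at 1.04% were the nearest outside. The first and the last of these have the component of a member. At the limit on level, TRINITY_DN14032_c0_g1, TRINITY_DN14932_c0_g2 and TRINITY_DN8514_c0_g1 were just inside with 10.1, 10.2 and 10.3 CPM in their lowest late library. TRINITY_DN13096_c0_g1 had 9.86 CPM, and TRINITY_DN15070_c0_g1 and TRINITY_DN15826_c0_g1 had 9.80 CPM. At 10 CPM the limit of 1% stands for 4.63, 1.12 and 2.38 counts in early R1, R2 and R3, so it was coarse for the weakest members.

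With the stages swapped, so that a gene had to reach 10 CPM in every early library and stay at or below 1% of that in late instars, 1 gene qualified. This was TRINITY_DN15318_c0_g1, with 49.2, 34.9 and 28.7 CPM in early R1, R2 and R3 and 1 late count. No condition on replicate 2 was applied there, and it removed 0 genes on the late side at the same limit. The clusters and the genes named by the study that the rule left out were left out here too. How many of them would have qualified as early-confined was not counted. At limits of 0.5% and 2% there were 74 and 213 late-confined genes and again 1 early-confined gene. At a limit of 5% there were 272 late-confined and 30 early-confined genes, and at 10% there were 327 and 114. Late-confined genes were the more numerous at each of these 5 limits.

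**Figure D5:**
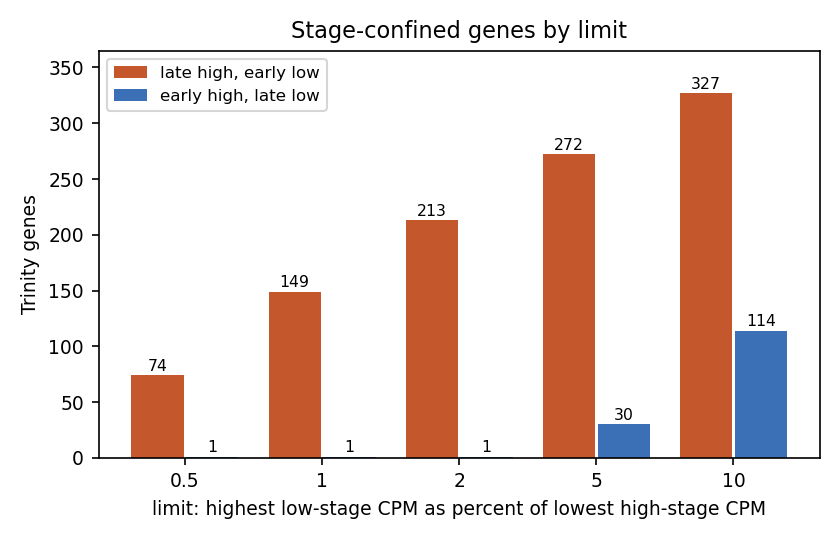
The bars give the number of Trinity genes confined to late (orange) and early (blue) instars, by the limit on the level in the other stage as a percent of the lowest CPM in the stage where the gene was high. At 1% there were 149 against 1 and at 10% there were 327 against 114.

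The 149 members came from 140 Trinity components. In 33 members the same component held a gene with at least 10 CPM in every early library. Of all 84 tested genes of these components that were not members, 36 reached that early level, and in 33 of the 36 the log2 change between the stages was under 1 in size. In all, 20 of the 84 passed the same limits as higher in late instars (23.8%, against 4.87% of all tested genes), and 1 was called higher in early instars. The 84 share assembled sequence with members chosen as higher in late instars, and fragments that fit both are divided between them. They are not independent of the members, so no enrichment is read from these shares. Some members were thus assembled beside contigs that were present in both stages, and others beside contigs that were also low in early instars.

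The component TRINITY_DN21951_c3 gives an example, chosen after its values had been seen. Its members TRINITY_DN21951_c3_g1 and TRINITY_DN21951_c3_g4 had 113.9, 94.0 and 61.0 CPM and 83.2, 92.2 and 60.9 CPM in late R1, R2 and R3, and counts above 0 in early R2 alone, with 0.297 and 0.268 CPM. Beside them, TRINITY_DN21951_c3_g2 had 755.7, 921 and 1027 CPM in the early and 1292, 1043 and 1338 CPM in the late libraries. By edgeR's quasi-likelihood test this log2 difference of 0.39 (SE 0.21) did not pass, with an adjusted p of 0.197. The member TRINITY_DN20475_c2_g3 likewise had 496, 478 and 305 CPM in late and 0.281, 0.537 and 0.126 CPM in early instars. Its neighbour TRINITY_DN20475_c2_g2 had 28.9, 28.5 and 25.9 CPM in early and 26.4, 26.6 and 27.3 CPM in the late libraries. Its log2 difference of -0.08 (SE 0.15) had an adjusted p of 0.717 in the same edgeR test. Late R3 was the lowest late library of all 3 members, and it was not the lowest of either neighbour. This did not hold for all neighbours present in both stages. TRINITY_DN13122_c0_g1 had 94.4, 83.9 and 79.4 CPM in late R1, R2 and R3, and TRINITY_DN17412_c0_g3 had 115, 94.9 and 91.3 CPM. The neighbours with late R3 lowest were not counted, so no difference between members and neighbours is read from these examples.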

How the data were processed

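Whole larvae were sequenced as 150 bp paired-end reads in 3 early and 3 late instar libraries. Groups came from the stage in the sample labels. The authors trimmed reads with Trimmomatic 0.36, assembled all libraries together with Trinity, then ran RSEM for abundance. Its version and the aligner: not given in the sources used here. For each transcript, the authors' RSEM tables give the unnormalized expected count. The authors also deposited TPM, FPKM and an isoform percent (share of gene TPM), each scaled within its library. FPKM was not used further.

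Expected counts were summed over isoforms per Trinity gene and divided by the library total (CPM). For the stage contrast, sums were rounded and genes with CPM above 1 in at least 2 of 6 libraries entered the fit of edgeR 4.0.16 under R 4.3.3 (TMM, glmQLFit, glmQLFTest, no covariate). Alternatives were edgeR's exact test, DESeq2 1.42.0, other factors and filters, other limits of the rule and each library left out. Replicates are separate pools of larvae of 1 family. 1 count is 0.0216 CPM in the deepest and 0.0895 CPM in the shallowest library, and lower bounds use 3 counts over the 81319393 early counts. Members, lists and comparisons were chosen with earlier results of these data known. Named genes are the 10 members of highest late TPM, the 3 with the highest and lowest late R2 relative to late R1 and R3, the 3 with most isoforms, the 3 of highest TPM at 0 early counts, the members of the largest component and the genes nearest to each limit, and others were chosen after their values were seen. No cell type markers were used, since the tables used here give identifiers alone.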

Additional observations from a re-analysis of the deposited data

How the results depend on the processing

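The number of members moved with the limits of the rule, from 228 at a late minimum of 5 CPM to 85 at 20 CPM, and to 74 at an early limit of 0.5%. It was 272 and 327 at early limits of 5% and 10%. With TPM in place of CPM it was 53, and 45 of these genes were among the 149 members. With a library left out it ran from 150 to 274, the last without late R3. The genes called higher in late instars over the whole table went from 1077 to 1621 with DESeq2 and 2244 with no filter on low counts, and from 581 to 1486 with a library left out, with 599 without early R3 and 581 without early R1. The median late CV of the members ran from 7.24% to 41.0% with a late library left out, 7.24% being the value without late R3. With the stages swapped, 30 genes qualified at a limit of 5% and 114 at 10%, and 1 gene with any library left out. With the replicate number as a block, 992 genes were called higher in late instars, among them all 149 members. The sample labels link the replicates of the 2 stages by a number only. Deviations of same-numbered libraries correlated at 0.16, 0.04 and 0.21, and each early library correlated best with the late library of its own number. With 3 libraries per stage these values cannot decide whether the libraries are paired. The other genes inside the window of the shared late profile went from 202 to 90 with a window of 0.2 and to 861 with 0.5. Without late R3 the window held 48.3% of them. The other alternatives, some added after seeing the data, moved no number of members or of genes called given here by 1.5 times. Nor did they move a median over the members by that much. Depth limits the early values, since 78 members rest on 3 or fewer early counts.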
